A study of Homo sapiens with 36 samples.

Results

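The comparison described here set K562 cells kept for 6 h in 1% oxygen against K562 cells kept for 6 h in 5% oxygen. Its members were taken by their labels, with earlier results of these data known, and are 6 of the 36 libraries of the series, 3 at each oxygen level. K562 is an established human leukemia line with erythroid features, used widely in studies of red cell genes and of gene regulation. The series followed these cells in 1%, 5% and 21% oxygen for 6 h, 24 h, 3 d and 6 d by polyA-selected RNA sequencing, with 3 libraries in each of its 12 groups. No group carried a genetic change or a drug, and all groups grew in DMEM. A separate incubator held the 6-well plates at each oxygen level, so that incubator and oxygen level cannot be told apart, and the labels give neither the temperature of each incubator nor whether replicate wells came from separate cultures. The p-values below therefore measure the spread between these libraries, which may be technical. The 3 libraries of 21% oxygen at 6 h stood beside the comparison as the level of ordinary culture.

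Cells sense oxygen through prolyl hydroxylases, which use it to mark the HIF alpha subunits for destruction. When oxygen runs short, the HIF proteins persist and switch on genes of glucose uptake, glycolysis, lactate production and feedback control such as EGLN3, which encodes one of the hydroxylases. A second response, given here as background, is that to temperature and protein damage, and its part in these data was not tested. Heat shock factor 1 drives chaperone genes when unfolded proteins accumulate, and the RNA-binding proteins RBM3 and CIRBP are known for their rise on mild cooling and have also been described in cells short of oxygen.

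The table lists 21950 genes in FPKM, that is, fragments normalised to transcript length and to the mapped fragments of each library, and differences are on the scale of log2(FPKM + 1), which understates those of weakly expressed genes. The tables hold no counts, so the depth in reads is unknown. Relative depth, read from the steps that single fragments make in weakly expressed genes, was 1.11 to 1.83 in the 1% libraries, 0.465 to 1.07 in the 5% libraries and 1.12 to 1.41 in the 21% libraries. Depth thus moved with the groups compared, and replicate 2 of 5% oxygen was the shallowest of the 9; the part of depth in the differences was not tested. The FPKM of all genes summed to 754919 to 774287 in 1%, 669307 to 743720 in 5% and 734223 to 817472 in 21% oxygen. Libraries of one group correlated at r = 0.9807 to 0.9906 across genes. The K562 label was borne out by GATA1 (178 to 221.9 FPKM), the erythroid master regulator, and by embryonic HBZ (3340 to 4263 FPKM), while CDKN2A, CDKN2B and MTAP, which K562 is known to have lost, stayed under 1 FPKM in all 9 libraries. Of 10 monocyte and granulocyte markers, 8 were under 1 FPKM in all 9 libraries, and the summed level of the list was 29.53 to 34.49 in 1%, 26.26 to 28.16 in 5% and 32.48 to 35.59 in 21% oxygen. Nearly all of that sum came from LYZ, at 16.28 to 26.56 FPKM over the 9 libraries, and CD68, at 7.202 to 10.83 FPKM. CSF1R and MPO, among the 8, did not exceed 0.1319 and 0.08057 FPKM.

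Few genes separated the oxygen levels at 6 h. Of the 10272 genes with a mean of at least 1 FPKM over the 6 libraries, 5 passed at an adjusted p under 0.05 (0.0487%; limma with Benjamini-Hochberg adjustment), 4 of them higher and 1 lower in 1% oxygen. The 4 were RBM3, CIRBP, EXOSC9 and SNAR-H, and the single gene that was lower was HSPA1A. Without adjustment, 1350 genes had a p under 0.05 with the higher level in 1% oxygen (13.1%) and 380 with the lower level (3.7%). The median log2 difference of all tested genes was 0.04, and 58.2% of them lay above 0. Rescaling each library to TPM moved that median by -0.10 to -0.06 and changed the split of the calls to 2 higher and 2 lower, and quantile normalization gave the same split of 2 and 2 with a median of 0.00. Of 30 genes that differed by at least 1 on the log2 scale, 2 passed, 22 overlapped between the groups and 21 had names of small RNAs. Pooling the spread over 35 libraries of all times raised the number of calls from 5 to 133 (1.29% of the genes), 120 of them higher (1.17%) and 13 lower (0.127%) in 1% oxygen, among them RBM3, CIRBP, EXOSC9 and HSPA1A.

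**Figure D1:**
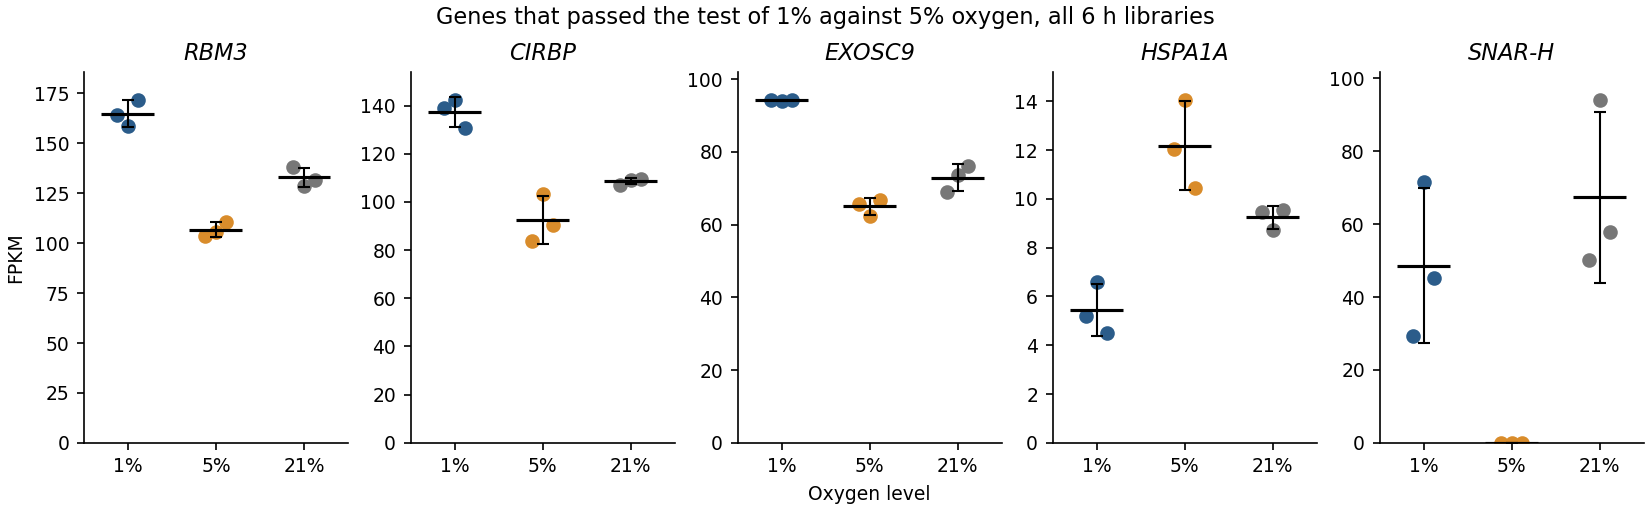
FPKM of the 5 genes that passed, in each of the 9 libraries of 6 h (points), with the mean (wide line) and SD (bars) of each oxygen level. RBM3 and CIRBP go down from 1% over 21% to 5% oxygen without overlap, HSPA1A runs the other way, and SNAR-H is listed at 0 in the 3 libraries of 5% oxygen.

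Both cold-inducible RNA-binding proteins on their list rose in 1% against 5% oxygen. RBM3, which binds mRNA and ribosomes and supports translation in cooled cells, stood at 164.1, 158.6 and 171.9 FPKM in 1% oxygen and at 103.8, 105.5 and 110.9 FPKM in 5% oxygen. Its 3 libraries of 21% oxygen lay between the groups at 138.4, 128.9 and 131.6 FPKM, and no library of one oxygen level reached into another. The difference was 0.62 on the log2 scale (SE 0.0611, a 1.54-fold difference, adjusted p = 0.00484 by limma). CIRBP, a glycine-rich relative that shuttles between nucleus and stress granules, stood at 139, 142.5 and 130.6 FPKM in 1%, at 83.72, 103.4 and 90.52 FPKM in 5% and at 107.2, 109.3 and 109.3 FPKM in 21% oxygen. These groups did not overlap either, and the 5% libraries were again the lowest. The difference was 0.57 (SE 0.079, adjusted p = 0.0473 by limma). Most of CIRBP came from 1 transcript, at a mean of 129.1 against 83.65 FPKM. RBM3 differed from 21% oxygen by 0.31 in 1% and by -0.31 in 5% oxygen, and CIRBP by 0.34 and -0.23, none of which passed. RBM3 lost its call without replicate 1 of 1% oxygen (adjusted p = 0.0595) and kept it in 19 of 20 alternatives, while CIRBP kept it in 6 of 20, with adjusted p of 0.00465 to 0.327 over them. CIRBP lost it without any 1 of the 1% libraries (0.142 to 0.232), without replicate 1 or 3 of 5% oxygen (0.2 and 0.0963) and without replicate 2 or 3 of 21% oxygen (0.131 and 0.114). Its call was also lost with only the 6 libraries compared, with a smaller pseudocount and without a filter beyond a mean above 0. Rescaling to TPM, quantile normalization, the replicate number as a block and all 36 libraries lost it too.

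EXOSC9, a core subunit of the RNA exosome that degrades and trims RNA from its 3′ end, rose in 1% oxygen. It stood at 94.29, 94.12 and 94.36 FPKM in 1%, at 65.64, 62.48 and 66.91 FPKM in 5% and at 68.94, 73.67 and 76.13 FPKM in 21% oxygen. The 1% libraries were the highest, and the difference was 0.53 (SE 0.0625, adjusted p = 0.0182 by limma). One of its transcripts rose, at 71.04 ± 3.31 against 43.13 ± 0.469 FPKM (SD, n = 3 each, 0.71 on the log2 scale, adjusted p = 0.0111 by limma over 14719 transcripts), whereas another stood at 23.22 and 21.88 FPKM. The 3′ end of EXOSC9 overlaps that of CCNA2 on the other strand in the GENCODE annotation, and whether the counting used strand is not given in the sources used here. CCNA2, a cyclin of S phase and mitosis, differed by 0.21 (adjusted p = 0.199). The call for EXOSC9 held in 10 of 20 alternatives, and it was lost without any 1 of the 1% libraries, without replicate 1 or 2 of 5% oxygen and without replicate 2 of 21% oxygen (adjusted p of 0.0588 to 0.184). It was also lost after rescaling to TPM (0.222), after quantile normalization (0.0579), with the replicate number as a block (0.0799) and with all 36 libraries (0.0893).

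SNAR-H, a small noncoding RNA of a family of near-identical copies, was listed at 29.3, 71.5 and 45.1 FPKM in 1% oxygen, at 50.1, 94.1 and 57.8 FPKM in 21% oxygen and at 0 in the 3 libraries of 5% oxygen (adjusted p = 1.88e-05 by limma). Its assignment is uncertain, because reads of one copy can be given to another. The 19 SNAR genes of the table, 12 of them at 0 in all 9 libraries, summed to 400.7 to 534.9 FPKM in 1% and 249.3 to 626.1 FPKM in 5% oxygen, so that the family as a whole overlapped. Single copies also moved between 0 and far higher levels within a group. SNAR-C3 stood at 60.5, 0 and 69.9 FPKM in 1% oxygen, and SNAR-E at 218.3, 0 and 0 FPKM in 5% oxygen. In so short a gene, FPKM of this size can rest on a few fragments, which the p-value does not take into account. No fold is given against a group listed at 0, and the depth of the 5% libraries was the lowest. The call held in 17 of 19 alternatives and was lost with the spread pooled over 35 libraries (adjusted p = 0.117) or all 36 (0.466).

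HSPA1A, which encodes the stress-inducible HSP70 chaperone and is a direct target of heat shock factor 1, fell in 1% oxygen. It stood at 5.19, 6.59 and 4.51 FPKM in 1%, at 12.06, 14.06 and 10.43 FPKM in 5% and at 9.48, 8.71 and 9.56 FPKM in 21% oxygen. The order was thus the reverse of RBM3 and CIRBP, again with no overlap. The log2 difference was -1.04 with an SE of 0.138 (adjusted p = 0.0393 by limma). HSPA1B encodes the same protein from a nearly identical gene, and reads can be split between them, so their sum is the safer value: it was 8.205 ± 1.409 FPKM in 1%, 17.41 ± 1.782 in 5% and 13.02 ± 0.2202 in 21% oxygen (SD, n = 3 each). The call for HSPA1A held in 10 of 20 alternatives. It was lost without replicate 1 or 3 of 1% oxygen (adjusted p of 0.201 and 0.168) and without replicate 1 or 2 of 5% oxygen (0.2 and 0.168). Leaving out replicate 2 or 3 of 21% oxygen also lost it (0.0958 and 0.089). The same held with only the 6 libraries compared, without a filter beyond a mean above 0, with the replicate number as a block and with all 36 libraries. Over the alternatives the adjusted p by limma ran from 0.000261 to 0.542.

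Other chaperone genes lay on the same side as HSPA1A without passing. Of 27 tested members of the heat shock list, 1 passed, 10 had an unadjusted p under 0.05 with the lower level in 1% oxygen, against 3.7% of all genes, and 3 with the higher level. The groups did not overlap for 11 of the 27 on the lower side, against 7.86% of all genes. The list's median was -0.06, beside 0.04 for all genes, and it was -0.18 after rescaling to TPM, where that of all genes was -0.06, -0.19 after quantile normalization, where that of all genes was 0.00, and -0.15 without replicate 2 of 5% oxygen. CHORDC1, a co-chaperone of HSP90, stood at 13.2, 14.1 and 14.4 FPKM in 1% and at 20.9, 17.5 and 22.9 FPKM in 5% oxygen (difference -0.52, adjusted p = 0.122 by limma). HSP90AA1, the stress-inducible HSP90, stood at 518, 514 and 527 FPKM in 1% and at 605, 602 and 614 FPKM in 5% oxygen (-0.22, adjusted p = 0.122). Neither gene overlapped between the groups. HSPH1, BAG3, DNAJB1, HSPA4L, HSPB1 and HSPA8, named to complete the 10 after their values were seen, differed by -0.61, -0.49, -0.35, -0.34, -0.30 and -0.16. HSPA9, the HSP70 of mitochondria, also named after its value was seen, lay on the other side at 0.23, as did CCT3 and HSP90AB1, a chaperonin subunit and the constitutive HSP90, at 0.14 and 0.15. Outside the list, SERPINH1, the collagen chaperone HSP47, stood at 37.3, 40.9 and 38.9 against 49.9, 57.2 and 59.5 FPKM (-0.50, adjusted p = 0.122), and BAG2, a co-chaperone of HSP70, at 29.2, 31.1 and 33.3 against 50.8, 42.3 and 41.7 FPKM (-0.51, adjusted p = 0.115). On the higher side outside the list, DNAJC9, a J-domain co-chaperone, differed by 0.32 (adjusted p = 0.113), HSPA14, of the HSP70 family, by 0.33 (0.122) and CLPX, an unfoldase of mitochondria, by 0.39 (0.122); these 3 were named after their values were seen. In the fit that pooled 35 libraries, all 3 passed on the higher side and SERPINH1 on the lower side. In that fit 4 of the 27 members of the heat shock list passed, all lower in 1% oxygen, where 0.127% of all genes did: HSPA1A, HSPA1B, CHORDC1 and DNAJB1.

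**Figure D2:**
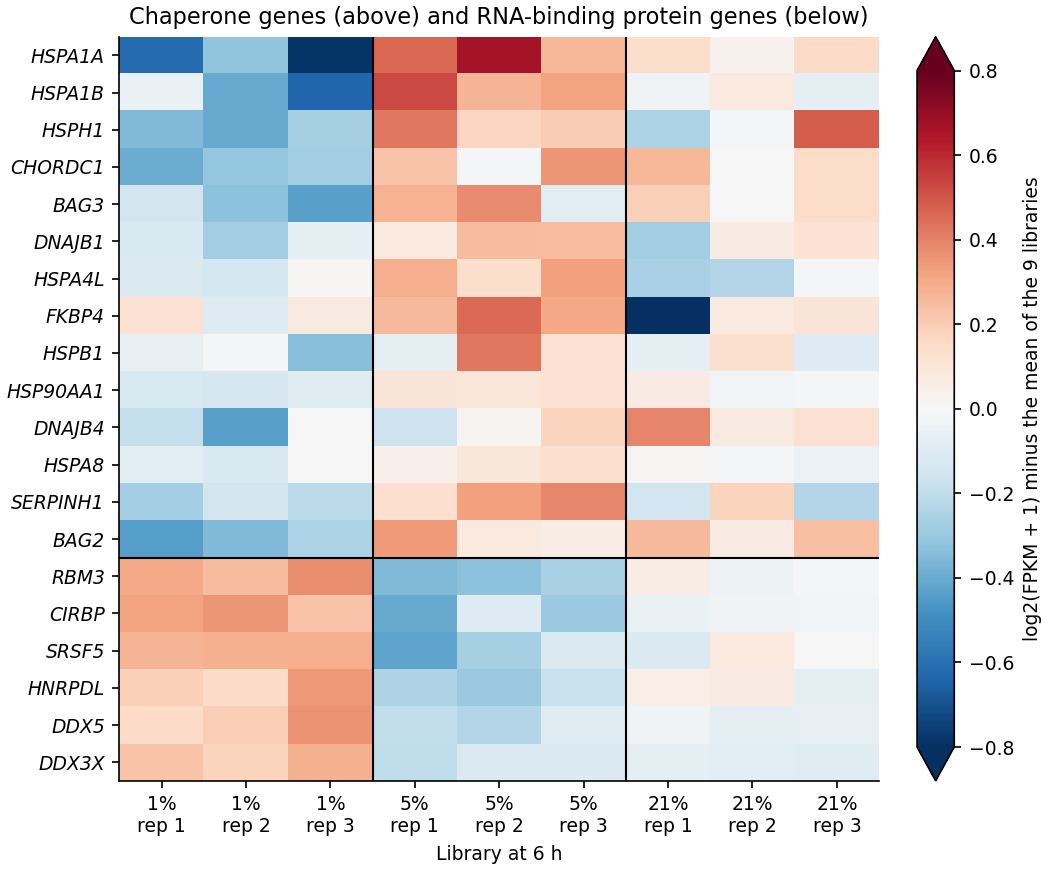
Deviation of log2(FPKM + 1) from the mean of the 9 libraries for 14 chaperone genes (above the line) and 6 genes of RNA-binding proteins and helicases (below it), with 1 column per library and colors capped at 0.8 on either side. RBM3 and CIRBP are high in the 3 libraries of 1% and low in those of 5% oxygen, and HSPA1A is the reverse.

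The sequences before 3 chaperone genes are shown because heat shock factor 1 binds repeated GAA units in alternating orientation. The 250 bases before the start site were taken from RefSeq (GRCh38.p14) and searched on both strands for GAANNTTCNNGAA and its complement TTCNNGAANNTTC, which 0.441% of 35116 promoters of that length held. CHORDC1 (chr11:90223050-90223299, minus strand) held 3 overlapping matches, and the second start site of HSP90AA1 (chr14:102087045-102087294, minus strand) held 1. HSPA1A (chr6:31815293-31815542, plus strand) held none in this window, which says only that these letters are not there. Among the other promoters searched, 1 of HSPD1, a chaperonin gene of mitochondria that did not pass, held 2 matches. The other start sites of HSPD1 and HSP90AA1 held none. Those of HSPA1B, HSPH1, DNAJB1, HSPA4L, BAG2, DNAJA1, HSPE1, STIP1, AHSA1, MANF, RBM3, CIRBP and EXOSC9, the remaining genes searched, held none either. Matches are in capitals.
CHORDC1: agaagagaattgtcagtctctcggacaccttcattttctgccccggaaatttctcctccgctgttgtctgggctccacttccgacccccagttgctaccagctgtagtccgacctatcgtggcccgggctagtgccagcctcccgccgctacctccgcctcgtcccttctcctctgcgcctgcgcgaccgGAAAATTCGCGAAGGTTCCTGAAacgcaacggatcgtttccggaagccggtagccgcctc
HSP90AA1: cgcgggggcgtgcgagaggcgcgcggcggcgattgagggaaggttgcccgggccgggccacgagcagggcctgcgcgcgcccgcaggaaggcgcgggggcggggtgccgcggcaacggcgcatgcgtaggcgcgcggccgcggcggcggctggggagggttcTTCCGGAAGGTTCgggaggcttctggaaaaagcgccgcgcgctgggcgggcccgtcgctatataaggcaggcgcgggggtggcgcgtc
HSPA1A: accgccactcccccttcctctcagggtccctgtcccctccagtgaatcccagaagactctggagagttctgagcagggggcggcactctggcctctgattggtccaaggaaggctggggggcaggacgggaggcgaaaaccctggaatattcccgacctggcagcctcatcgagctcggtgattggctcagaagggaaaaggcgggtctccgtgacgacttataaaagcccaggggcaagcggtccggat

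**Figure D3:**
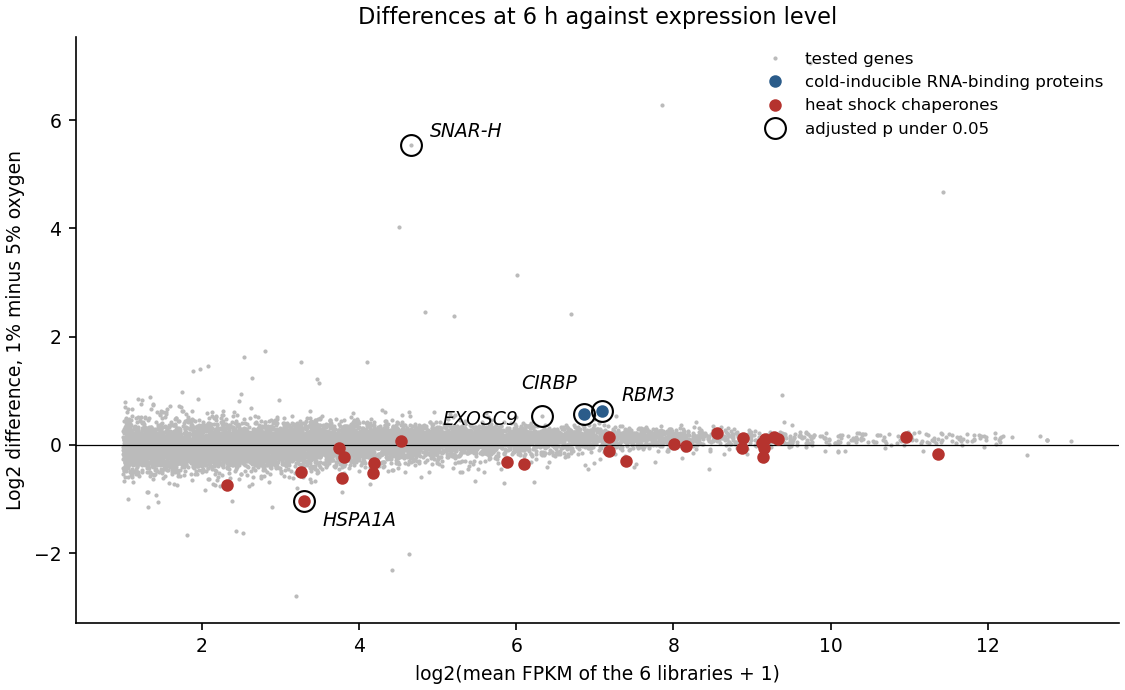
Log2 difference of 1% minus 5% oxygen at 6 h against log2 of the mean FPKM of the 6 libraries plus 1, for 10272 tested genes (gray), with 2 cold-inducible and 27 heat shock genes in color and the 5 genes that passed circled. RBM3 and CIRBP lie at 0.62 and 0.57, and HSPA1A at -1.04.

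The genes named next did not pass. SRSF5, a splicing factor, stood at 148, 149.4 and 149.8 FPKM in 1% and at 90.97, 101.7 and 113 FPKM in 5% oxygen (0.55, adjusted p = 0.0805 by limma). HNRPDL, an RNA-binding protein of the heterogeneous nuclear ribonucleoproteins, differed by 0.47 (adjusted p = 0.0805), and the RNA helicases DDX5 and DDX3X by 0.42 and 0.37 (adjusted p = 0.0941 each). DDX5 ran from 334.2 to 386.3 FPKM in 1% and from 254.7 to 280.5 FPKM in 5% oxygen. On the lower side, EIF4A2, a helicase of translation initiation, stood at 143.2, 153.4 and 166.6 against 210.8, 196.1 and 209.3 FPKM (-0.41, adjusted p = 0.0941). EIF4A2 passed under 6 of the alternatives, among them TPM rescaling (adjusted p = 0.0388) and the pooled fit, and SRSF5 under 5. MYEOV (0.54), MTFR2 (0.61), ZFAND6 (0.42) and VIM (0.37), the intermediate filament vimentin, also had an adjusted p of 0.0941. Further down on the lower side were ASTN2 (-0.58), the antisense transcript UGDH-AS1 (-0.71), MRM1 (-0.42), UBE2W (-0.58) and FLJ26245 (-0.68), with adjusted p of 0.115 to 0.122.

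No target of the HIF proteins passed between 1% and 5% oxygen at 6 h, although P4HA1 did on the lower side with the spread pooled over 35 libraries (adjusted p = 0.0371). Of 27 tested, 3 had an unadjusted p under 0.05 on the higher side against 13.1% of all genes, and 1 on the lower side against 3.7%, with a median of -0.00. BHLHE40, a transcriptional repressor, stood at 18.56, 16.94 and 20.76 FPKM in 1% and at 14.7, 14.76 and 12.86 FPKM in 5% oxygen, beside 13.05, 12.29 and 13.73 FPKM in 21% oxygen (0.38, adjusted p = 0.133 by limma). The groups of 1% and 5% did not overlap. AK4, an adenylate kinase of mitochondria, differed by 0.27 (adjusted p = 0.204) and PDK1, the kinase that closes pyruvate dehydrogenase, by 0.29 (adjusted p = 0.283). P4HA1, a collagen prolyl hydroxylase, lay on the other side at 19.41, 20.05 and 26.25 against 28.45, 26.72 and 30.08 FPKM (-0.37, adjusted p = 0.17). EGLN3 stood at 8.18 to 9.49 FPKM in 1%, at 6.93 to 8.21 FPKM in 5% and at 4.26 to 6.34 FPKM in 21% oxygen; the 2 low levels overlapped, and both lay above 21%. Differences of 0.26 (KDM3A, a histone demethylase), 0.15 (ANKRD37), 0.10 (DDIT4, an inhibitor of mTORC1), 0.06 (PFKFB4), -0.04 (BNIP3, a mitophagy receptor, SE 0.075) and -0.23 (VEGFA, an angiogenic factor) did not pass. The HIF subunit genes HIF1A and EPAS1 differed by 0.16 (SE 0.121) and 0.08 (SE 0.144). CA9, ADM and NDRG1 stayed under the level needed for testing.

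The HIF proteins bind a short core motif, of which ACGTG is 1 form and the only form searched. The 250 bases before BHLHE40 (chr3:4979187-4979436, plus strand, RefSeq GRCh38.p14) are shown with its matches in capitals. ACGTG or its complement CACGT gave 4 matches in 3 separate stretches, since CACGTG matches on both strands. Of the 35116 promoters, 18.5% held a match on either strand. ANKRD37 held 3 matches, 1 start site each of PDK1 and AK4 held 2, and P4HA1 held 1. Promoters of EGLN3 and KDM3A held none, which says only that these letters are not there.
BHLHE40: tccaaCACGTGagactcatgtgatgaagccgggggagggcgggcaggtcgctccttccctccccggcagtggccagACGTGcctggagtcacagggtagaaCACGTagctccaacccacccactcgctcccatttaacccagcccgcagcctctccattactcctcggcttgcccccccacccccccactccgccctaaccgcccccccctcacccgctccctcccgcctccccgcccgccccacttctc

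Glycolysis genes lay slightly higher in 1% oxygen, with no member past the threshold. Of 20 tested, 10 had an unadjusted p under 0.05 on the higher side, against 13.1% of all genes, and none on the lower side, against 3.7%, with a median of 0.16 beside 0.04 for all genes. ENO1 stood at 1824, 1823 and 1839 against 1471, 1646 and 1638 FPKM (0.21, adjusted p = 0.169 by limma), and GAPDH at 4791, 4685 and 4600 against 3801, 3916 and 4338 FPKM (0.23, adjusted p = 0.17). Neither overlapped. PFKP (0.22), GPI (0.16), LDHA (0.17), PGK1 (0.14), ALDOC (0.25) and the glucose transporter SLC2A3 (0.26) were similar in size, and SLC2A1 overlapped (0.13). The list's median was 0.17 without replicate 2 of 5% oxygen, 0.04 after rescaling to TPM, where that of all genes was -0.06, and 0.03 after quantile normalization, where PGK1 turned to -0.01. The count of 10 with an unadjusted p under 0.05 became 0 after rescaling to TPM and 1 after quantile normalization.

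Genes of cell division showed many small differences. Of 40 DNA replication genes, 20 had an unadjusted p under 0.05 on the higher side, where 13.1% of all genes did, and none on the lower side. The groups did not overlap for 21 of the 40 on the higher side, against 16.7% of all genes. The median was 0.18, and none passed. In the fit that pooled 35 libraries, 7 of the 40 passed on the higher side, where 1.17% of all genes did. MCM7, a subunit of the replicative helicase, stood at 464.3, 451.7 and 451.1 against 343.6, 387.7 and 369.6 FPKM (0.31, adjusted p = 0.115 by limma), and MCM5 at 145, 137.3 and 144.2 against 99.75, 115.3 and 117.2 FPKM (0.36, adjusted p = 0.119). CDC45 (0.27), which joins that helicase, and MCM3 (0.27) did not overlap either. Of 24 mitosis genes, 14 had an unadjusted p under 0.05 on the higher side, with a median of 0.18, among them BIRC5 (0.26), NUSAP1 (0.30), AURKA (0.22) and DLGAP5 (0.23), which build or steer the spindle. The 14 tested genes of G1 cyclins and CDK inhibitors had a median of -0.03. The medians for replication and mitosis were 0.21 and 0.14 without replicate 2 of 5% oxygen, 0.07 and 0.07 after rescaling to TPM, and 0.10 and 0.07 after quantile normalization. Their counts of 20 and 14 on the higher side became 6 and 1 after rescaling to TPM, and 11 and 4 after quantile normalization.

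Lists of mitochondrial and ribosomal genes had medians above the 0.04 of all genes. The medians were 0.15 for 21 genes of the TCA cycle (8 with an unadjusted p under 0.05, all higher), 0.09 for 37 complex I subunits (6 higher), 0.08 for 39 subunits of complexes II to V (8 higher), 0.11 for 76 mitochondrial ribosomal proteins (19 higher) and 0.09 for 77 cytosolic ribosomal proteins (13 higher), with none lower and none passed. Of all genes 13.1% were higher by this measure, a share near that of the complex I and cytosolic ribosomal lists. The median of all genes was larger, at 0.07, when only genes with a mean of at least 5 FPKM were kept. The cytosolic ribosomal list then lay only 0.02 above it, complex I 0.02 and the other respiratory subunits 0.01. The list of the mitochondrial ribosome lay 0.04 above it and that of the TCA cycle 0.08. NDUFS1, the large iron-sulfur subunit of complex I, differed by 0.33 (adjusted p = 0.122), MRPL10 by 0.37, ATP5B, a catalytic subunit of ATP synthase, by 0.21 and RPL13A by 0.21. With the spread pooled over 35 libraries, NDUFS1 (adjusted p = 0.027) and MRPL10 (0.045) passed. Except for the TCA cycle (0.04 in either case), these medians turned to between -0.03 and -0.00 after rescaling to TPM, which moved the median of all genes to -0.06, so that they stayed above it. After quantile normalization they were between -0.04 and 0.01, beside 0.00 for all genes. The counts on the higher side fell to 1, 1, 1, 2 and 0, in the order above, under TPM rescaling and under quantile normalization alike. On the lower side, 6 mitochondrial ribosomal genes then had an unadjusted p under 0.05 in both cases. Quantile normalization also gave 1 lower gene of the TCA cycle and 3 of the cytosolic ribosome. Without replicate 2 of 5% oxygen the medians were 0.15 for the TCA cycle, 0.01 for both respiratory lists, 0.08 for the mitochondrial and 0.02 for the cytosolic ribosome. The median of all genes was then 0.03, so both respiratory lists and the cytosolic ribosome lay below it.

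**Figure D4:**
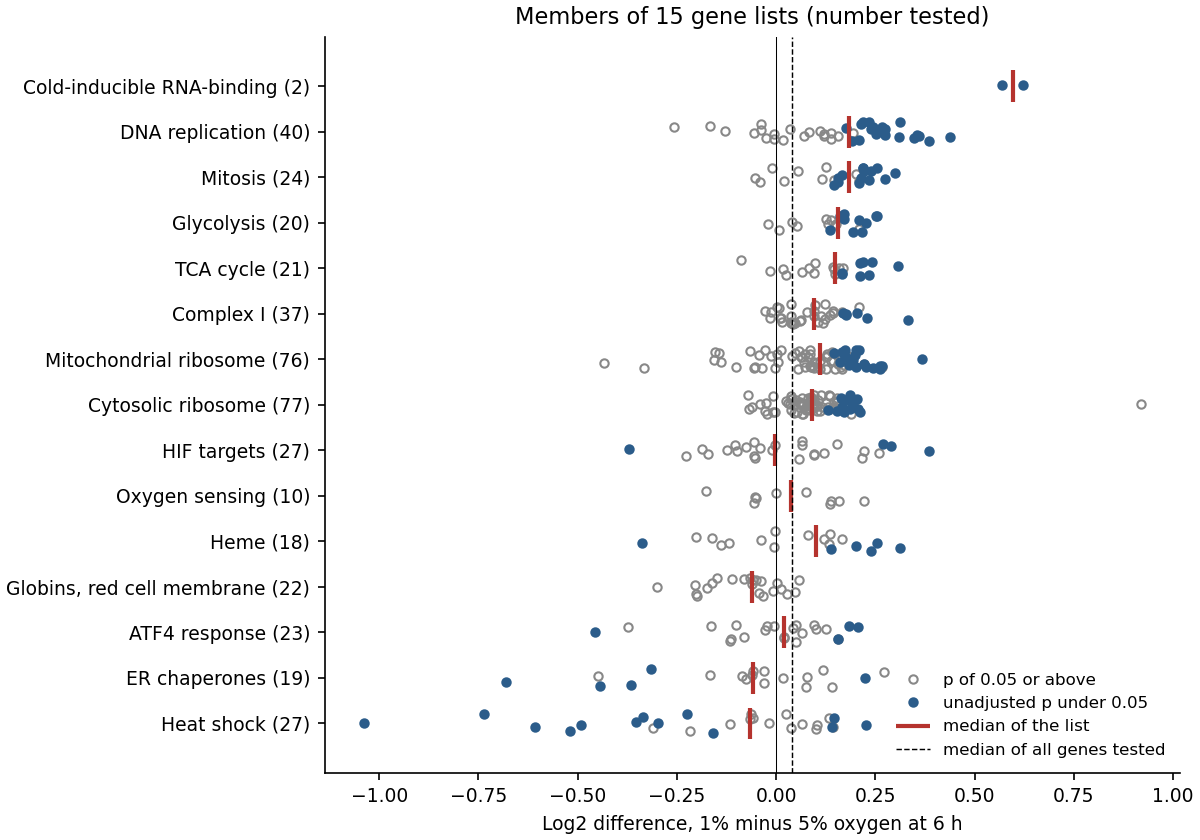
Log2 difference of 1% minus 5% oxygen at 6 h for each tested member of 15 gene lists (points, filled where the unadjusted p was under 0.05), with the median of each list (red) and of all tested genes (dashed, 0.04). The replication list lies to the right with a median of 0.18, the heat shock list spreads to the left, and the HIF targets center near 0.

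Of 19 tested stress genes of the endoplasmic reticulum, 4 had an unadjusted p under 0.05 on the lower side, against 3.7% of all genes, and 1 on the higher side, against 13.1%, and none passed. Their median was -0.06, -0.00 without replicate 1 of 1% oxygen, -0.17 after rescaling to TPM and -0.13 after quantile normalization. MANF, a secreted factor induced by unfolded protein, stood at 6.22, 5.74 and 9.22 against 10.9, 14.8 and 9.92 FPKM (-0.68, adjusted p = 0.152 by limma). XBP1, the transcription factor of that response, differed by -0.37 and the chaperone HYOU1 by -0.32. The 23 genes of the ATF4 response had a median of 0.02, with CEBPG at -0.46. ID1, an inhibitor of differentiation factors, stood at 192, 176 and 174 against 118, 122 and 136 FPKM (0.53, adjusted p = 0.115) and MAP1LC3B, an autophagosome protein, at 76.1, 77.9 and 80.1 against 58.2, 59.4 and 66.4 FPKM (0.34, adjusted p = 0.115). TXNIP differed by 0.19 and MYC by 0.03, the latter with a sign that turned under both rescalings.

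None of 22 globin and red cell membrane genes had an unadjusted p under 0.05. Of these, 17 lay below 0, where 58.2% of all genes lay above it, and their median was -0.06 beside 0.04 for all genes. After rescaling to TPM and after quantile normalization, 4 had an unadjusted p under 0.05 on the lower side. Of all 10272 genes, 1179 and 1154 had such a p in either direction, and the share on the lower side was not taken. TPM rescaling moved the median of all genes to -0.06, which turns more genes to the lower side by construction. Among 18 genes of heme synthesis and transport, FECH, which inserts iron into heme, differed by 0.31 and SLC25A37, which carries iron into mitochondria, by -0.34 (adjusted p of 0.144 and 0.152 by limma). TFRC, the transferrin receptor, differed by 0.18 and ALAS2, the erythroid enzyme that opens heme synthesis, by -0.12. The 7 tested long nuclear RNAs, whose share can move with RNA quality, had a median of -0.11, with MALAT1 at 130 to 188 FPKM in 1%, 185 to 232 FPKM in 5% and 195 to 294 FPKM in 21% oxygen, and KCNQ1OT1 at -0.46; the part of RNA quality in the other differences was not tested. Keratin and vimentin genes that K562 expresses summed with other epithelial and stromal markers to 1863 to 1946 FPKM in 1% and 1533 to 1712 FPKM in 5% oxygen, of which EPCAM gave 77.5 to 135 FPKM over the 9 libraries and COL1A2 2.08 to 3.06. CDH1, COL1A1 and DCN stayed under 1 FPKM.

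Set against ordinary culture, neither low level differed from 21% oxygen in many genes at 6 h. In 1% against 21% oxygen limma passed 0 of 10272 genes (0%), with 1226 at an unadjusted p under 0.05, and in 5% against 21% oxygen it passed 1 (0.00974%), SNAR-H, with 1153. The comparisons share libraries with that of 1% and 5% oxygen, so their values only stand side by side. EXOSC9 (0.37 and -0.16), SRSF5 (0.29 and -0.26), HSPA1A (-0.68 and 0.35), BAG2 (-0.54 and -0.03) and MCM5 (0.36 and 0.00) are given as 1% and then 5% minus 21% oxygen. BHLHE40 (0.49 and 0.11), PDK1 (0.39 and 0.10) and EGLN3 (0.62 and 0.40) had positive differences from 21% oxygen at both levels, none of which passed. The median over HIF targets was 0.00 in 1% and 0.08 in 5% oxygen, and over heat shock genes -0.04 and 0.05.

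More genes passed between 1% and 5% oxygen at the later times than at 6 h. The fit of 35 libraries left out the sparse replicate 3 of 1% oxygen at 3 d (7220 genes above 0, against 14512 to 19543 in the others). In it 294 genes passed at 24 h (2.86%), 2716 at 3 d (26.4%) and 2751 at 6 d (26.8%), beside 133 at 6 h (1.29%). Without adjustment the same fit gave 1624 genes with a p under 0.05 at 6 h, 1615 at 24 h, 3955 at 3 d and 3910 at 6 d, so the rise at 24 h was in the adjusted calls only. Genes that passed on the higher and lower side in 1% oxygen were 195 (1.9%) and 99 (0.964%) at 24 h, 1625 (15.8%) and 1091 (10.6%) at 3 d, and 1669 (16.2%) and 1082 (10.5%) at 6 d. The split depended on the scaling: rescaling to TPM gave 116 and 19, 2275 and 301, and 408 and 1288, and quantile normalization 261 and 247, 1204 and 1591, and 1602 and 1202. RBM3 was higher in 1% than in 5% oxygen at each time, by 1.25, 1.34 and 1.52 at 24 h, 3 d and 6 d, and CIRBP by 0.53, 0.42 and 1.10, all past the threshold in limma. At all 4 times the 5% libraries of both genes lay below every library of 1% and 21% oxygen. RBM3 in 5% oxygen stood at 71.86 ± 3.146 FPKM at 24 h, 47.29 ± 0.178 at 3 d and 57.87 ± 2.752 at 6 d, against 172.8 ± 9.616 (n = 3), 121.4 ± 12.45 (n = 2) and 168.4 ± 8.544 (n = 3) in 1% oxygen. HSPA1A differed by -0.67 at 24 h (adjusted p = 0.005), and by -0.16 and 0.09, neither of which passed, at 3 d and 6 d.

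At 24 h, 15 of 27 HIF targets passed, all higher in 1% oxygen, where 1.9% of all genes did, with a median of 0.46 over the list. Of 20 glycolysis genes 14 did, also with a median of 0.46, beside 0.01 for all genes. BHLHE40 reached 1.12 at 24 h and 0.40 at 3 d and turned to -0.84 at 6 d, PDK1 reached 1.49, 0.72 and 1.27, and EGLN3 1.35, 0.74 and 0.64. BHLHE40 stood at 249 FPKM in 1% and 188.6 FPKM in 5% oxygen at 3 d, and at 81.59 and 146.4 FPKM at 6 d. Tested as a difference from 6 h, the contrast had changed in 59 genes at 24 h (0.574%), 2073 at 3 d (20.2%) and 1004 at 6 d (9.77%).

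**Figure D5:**
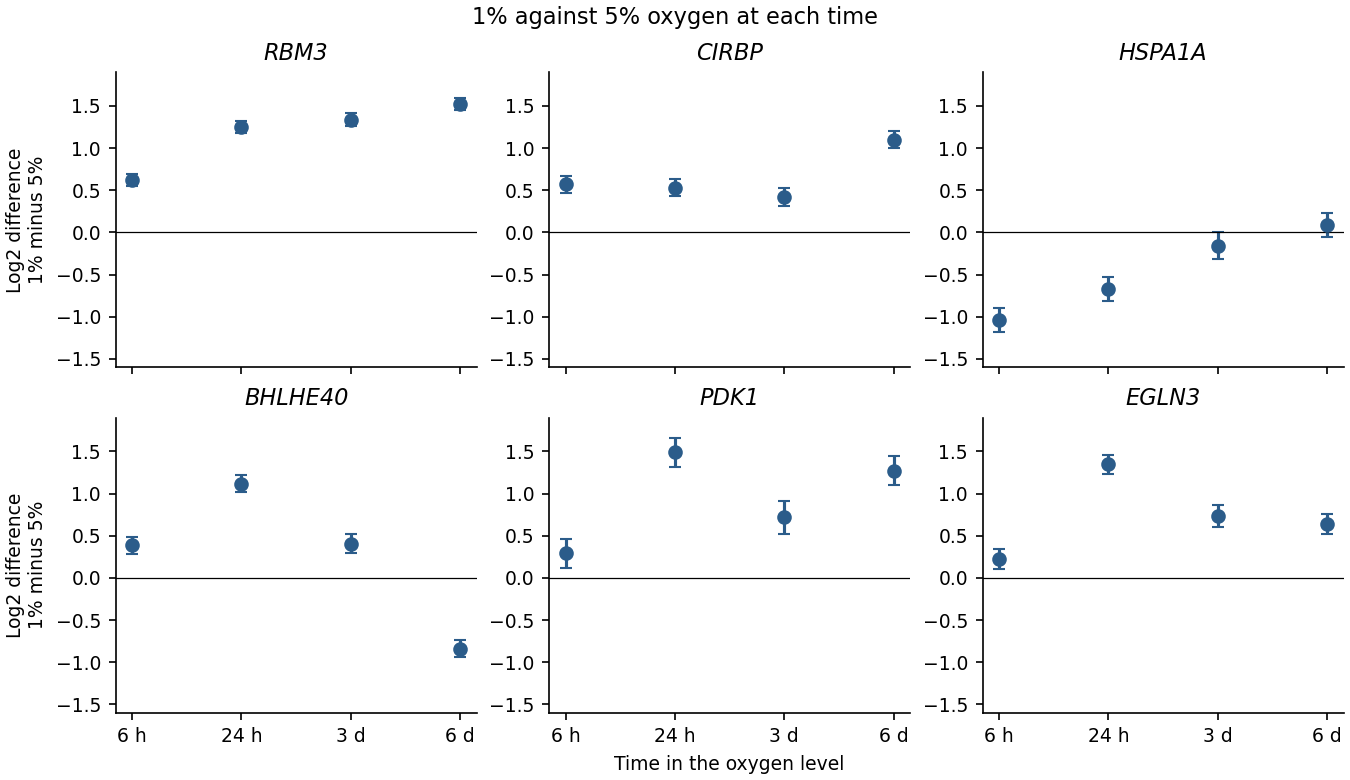
Log2 difference of 1% minus 5% oxygen (points) with its SE (bars) at 6 h, 24 h, 3 d and 6 d, from the fit of 35 libraries. RBM3 grows from 0.62 to 1.52, HSPA1A goes from -1.04 to 0.09, and PDK1 and EGLN3 peak at 24 h with 1.49 and 1.35.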

How the data were processed

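The authors' deposited tables hold gene and transcript FPKM. TopHat, Cufflinks and Cuffnorm are named in the submitters' processing notes, with versions, build and gene models not given in the sources used here. Values were taken as log2(FPKM + 1). A gene was tested when its FPKM averaged 1 or more over the 6 libraries of 1% and 5% oxygen at 6 h, with limma 3.58.1 in R 4.3.3 (a mean per group, trended prior, two-sided moderated tests, Benjamini-Hochberg adjustment over all 10272 genes, threshold 0.05). The 9 libraries of 6 h set the spread (6 residual degrees of freedom). Later times and differences from 6 h came from 35 libraries (23 degrees of freedom). Each p-value and fold was computed from the deposited FPKM, not taken from the authors.

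Groups came from the labels. The members, the 39 gene lists and the tests were chosen with earlier results of these data known. Genes were named by a rule: up to 12 per direction with a mean of at least 5 FPKM and no overlap between groups, filled up by the smallest p; up to 4 per list; a fixed set of 33, of which 30 were tested; and the 5 smallest adjusted p for each difference from 6 h. The text leaves out some of the 182 genes so named. The procedure was tested on simulated data of 9 libraries and 10272 genes with normal noise. In each of 5 runs 200 genes were changed, all at a level above about 5 FPKM. Of those changed 1.5-fold, 71.9% were called, as were 94.9% of those changed 2-fold and 98.5% of those changed 4-fold. Of all calls in the simulation, 4.33% were false. In the data only 5 genes passed, and the adjustment is stricter where fewer genes change. The simulated shares therefore need not hold for this comparison. The transcript table was fitted in the same way after the gene results were seen; 90.4% of its 41726 transcripts matched a symbol. Promoter sequences came from RefSeq (GRCh38.p14). Alternatives changed the pseudocount, filter, scaling, libraries and replicate block; GC and length correction (92.3% of genes matched) and leaving out 21% libraries were chosen after seeing the data. Plots used matplotlib 3.10.9.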

Additional observations from a re-analysis of the deposited data

Results flagged for a closer look

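The difference between 1% and 5% oxygen at 6 h was itself different at later times for 59 genes at 24 h, 2073 at 3 d and 1004 at 6 d, by a test of that difference in the limma fit of 35 libraries. All values here are changes in the log2 difference relative to 6 h, and each had an adjusted p under 0.05.

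At 24 h the log2 difference had increased by 1.74 for PFKFB4, an enzyme that sets the rate of glycolysis, 1.52 for EGFL7, 1.25 for ALDOC, a glycolytic aldolase, 1.23 for P4HA1, 1.20 for PDK1, 1.12 for BNIP3, 1.12 for EGLN3 and 0.73 for BHLHE40. It had increased by 0.63 for RBM3, and it changed by -0.60 for SRSF5. P4HA1 differed by -0.37 at 6 h, which passed in this fit (adjusted p = 0.0371) and not in that of the 9 libraries of 6 h.

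At 3 d the change was -0.72 for MCM7, -1.61 for IFI30, a thiol reductase of lysosomes, -1.23 for SERPINF1 and -0.85 for NOLC1, a nucleolar chaperone, against 1.71 for SLC5A3, an inositol transporter. It was 0.72 for RBM3, 0.88 for HSPA1A, 0.52 for EGLN3, -0.38 for EXOSC9, -0.81 for MYEOV and -0.80 for SRSF5. In 1% oxygen this time point rests on 2 libraries.

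At 6 d the change was -2.997 for CD44, a cell surface receptor of hyaluronan, -2.60 for TIMP1, a protease inhibitor, and -2.24, -1.93 and -1.85 for the intermediate filament genes VIM, KRT8 and KRT18, whose differences at 6 h ran from 0.10 for TIMP1 to 0.43 for CD44. Of these only VIM passed at 6 h in this fit (adjusted p = 0.0244). It was 0.90 for RBM3, 0.53 for CIRBP, 1.13 for HSPA1A, 0.98 for PDK1, -1.22 for BHLHE40, -0.79 for MYEOV and -0.37 for SRSF5.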

How the results depend on the processing

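The number of genes that passed in 1% against 5% oxygen at 6 h, 5, became 3 without a filter beyond a mean above 0, 133 with the spread pooled over 35 libraries, and 2 with the replicate number as a block. The deviations of same-numbered 1% and 5% libraries from their group means correlated at -0.03 to 0.04 across genes. That gave no sign of pairing, but it cannot tell whether the numbers mark shared cultures. The block was therefore run only as an alternative. Leaving out 1 library in turn gave 1 to 9 calls: 1 without replicate 1 of 1% oxygen, 2 without replicate 3 of 1% or replicate 2 of 21%, 3 without replicate 1 or 2 of 5% or replicate 3 of 21%, and 9 without replicate 1 of 21%. For 1% against 21% oxygen the 35-library fit gave 10 in place of 0, and for 5% against 21% oxygen the fits of 35 and 36 libraries gave 0 in place of 1. With all 36 libraries the counts were 75 at 24 h, 854 at 6 d, and 9 and 273 for the differences of 24 h and 6 d from 6 h. After rescaling to TPM they were 135, 1696, 21 and 573, and quantile normalization gave 508 at 24 h; the cause was not tested.

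Of 1829 values of single genes under the alternatives, these changed sign, all of genes that did not pass at 6 h in the fit of 9 libraries. TPM rescaling lowers the median of all genes by 0.10, so small positive differences turn under it by construction: after TPM rescaling EPAS1 (-0.0049), PFKFB4 (-0.0364), DDIT4 (-0.0171), MYC (-0.0804) and TIMP1 (-0.0159), and after quantile normalization DDIT4 (-0.0278), PGK1 (-0.0111), MYC (-0.1029), NOLC1 (-8e-04), KRT18 (-9e-04) and TIMP1 (-0.0354). With a library left out, EPAS1 ranged from -0.0696 to 0.1857, ANKRD37 from -0.0605 to 0.2981 (-0.0553 without replicate 1 of 1% oxygen) and PFKFB4 from -0.0371 to 0.1509; for these and for quantile normalization the cause was not tested.

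With 3 libraries a group and no counts, differences under 1.5-fold are often missed, and an adjusted p over the threshold does not show that levels were equal. Depth was lowest in 5% oxygen. Medians of the glycolysis, replication, mitosis, mitochondrial and ribosomal lists, and their counts of small unadjusted p-values, depended on the scaling, as given above.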
